A study of Mus musculus with 11 samples.

Results

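Normal mouse liver at postnatal day 56 (P56, 3 arrays) was compared with normal mouse liver shortly before birth (E18.5, 3 arrays), so the comparison uses 6 of the 11 arrays of normal development in the series. The arrays were taken by their titles, which give the embryonic day as 18, while the results text of the study uses E18.5. Every gene that passed the brightness filter was followed, which came to 16704 genes, 11856 of them with a gene symbol. Each 2-colour Agilent array of the 4x44k mouse design carried liver RNA labeled with Cy5 and, labeled with Cy3, a commercial RNA of normal adult mouse liver that served as a common reference on all 11 arrays. The labels name no transgene, deletion or drug for either group. The labels name mouse liver as the source of all arrays and give immature hepatocytes as the cell type at E18.5 and hepatocytes at P56, while the methods speak of whole livers and of immature hepatocytes isolated from fetal livers. Which of these an E18.5 array holds is not settled here, and the blood cell genes given further on bear on it. Sex, strain, age beyond the day and pooling of animals are not given by the labels, so the p-values measure the spread between these arrays. In bulk RNA, fewer cells of a type and less RNA per cell cannot be told apart.

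Around birth the liver changes its work. The fetal liver is the main site of blood formation, its hepatocytes still divide, and nutrients arrive through the placenta. After birth blood formation moves to the bone marrow, and the liver has to make bile acids from cholesterol, clear drugs and ammonia, and switch between storing and releasing fuel as the animal feeds and fasts. At weaning and puberty the pulses of growth hormone become adult and differ between the sexes, and many hepatic genes follow them.

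Values are log2 ratios of the liver sample to the adult reference after background correction and loess normalization within each array, so 0 means the level of the reference, and a log2 fold change is the P56 mean minus the E18.5 mean. A gene was called when limma gave it an adjusted p (Benjamini-Hochberg over all genes) under 0.05. At P56, 5208 genes were higher (31.2% of those tested) and 5609 lower (33.6%) than at E18.5, 64.8% in all. The counts of the gene lists below are to be read beside these shares. The median over all genes was -0.01, with quartiles of -0.50 and 0.41. With arrays centred on their own medians instead of loess (median centring from here on), the median over all genes moved to -0.42 and the higher genes made up 14.93% of the calls instead of 48.15%, so small changes are to be read relative to that shift. The medians of the 38 gene lists moved by -0.84 to -0.15 with it, and 10 turned sign. Against the reference itself, the P56 arrays were higher for 26.3% of the genes and lower for 30.6%. All liver samples were labeled with Cy5 and the reference with Cy3, so this test cannot separate a difference from dye bias. The reference was 1 RNA, whose own spread was not measured. Pearson's r between replicate arrays over the genes tested was 0.969 to 0.985 at E18.5 and 0.827 to 0.937 at P56. Spots well above background in Cy5 numbered 24415 to 25718 at E18.5, and 23079, 16790 and 20131 on P56 replicates 1, 2 and 3. The E18.5 arrays lay in scans 1 and 2 and the P56 arrays in scan 4, so scan and stage cannot be told apart by a fixed block or within a scan. With the scan as a random block, 4557 genes were higher and 4987 lower.

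**Figure D1:**
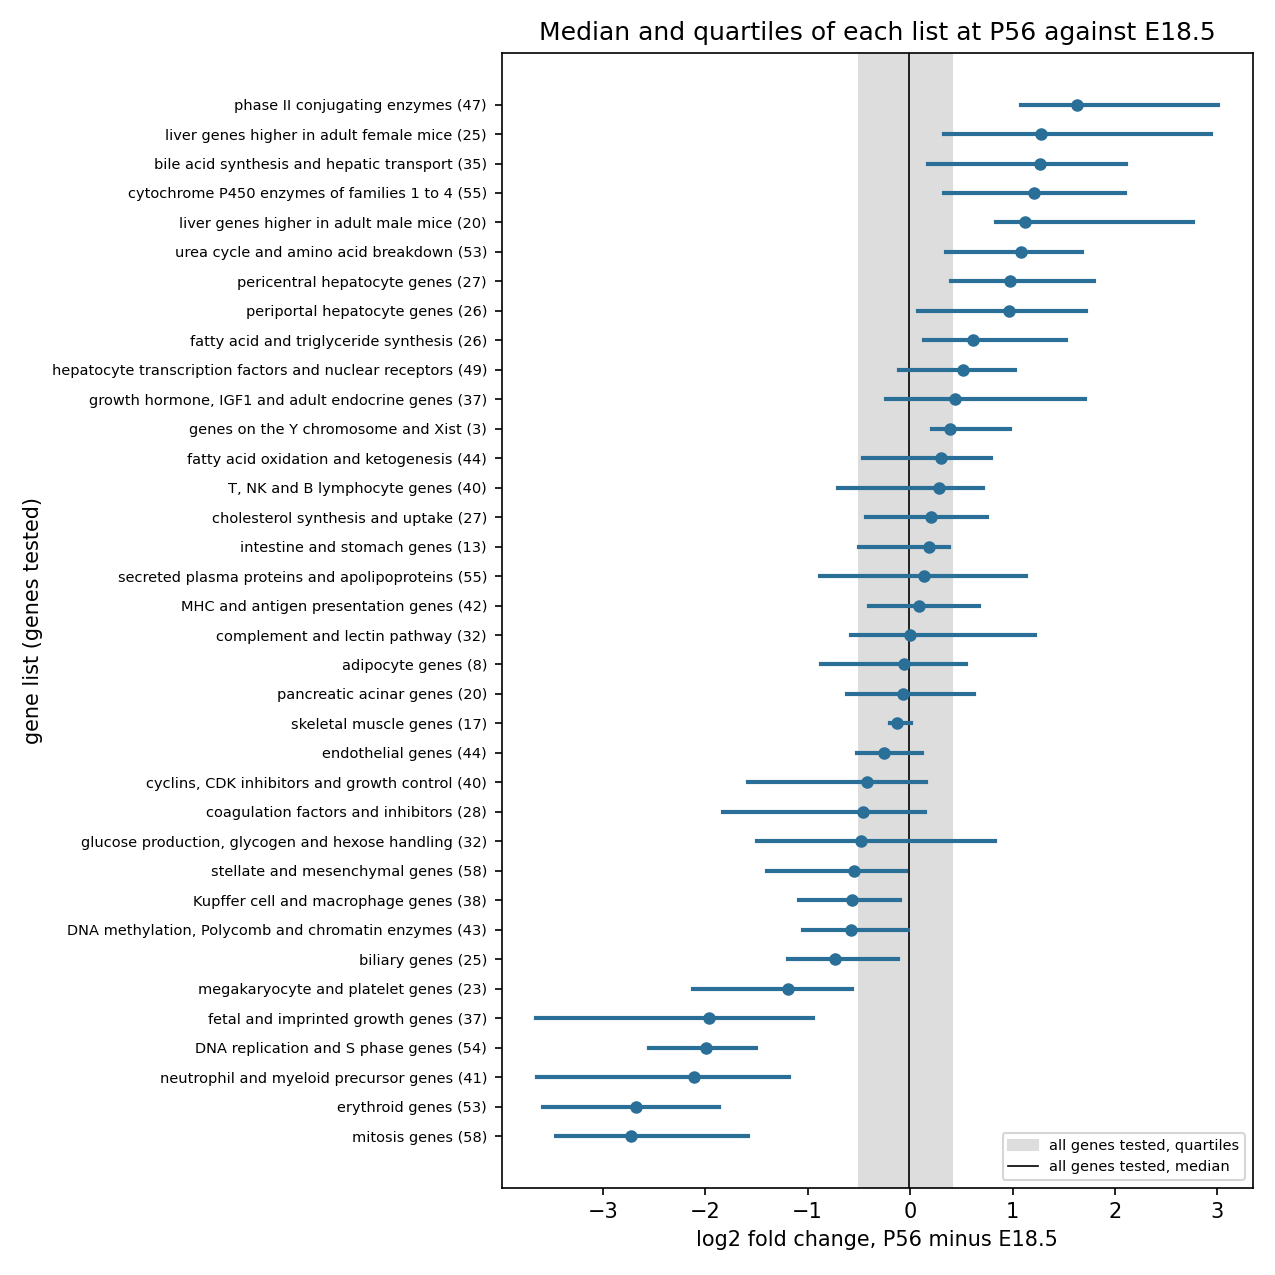
Median log2 fold change, P56 minus E18.5, of each gene list (points), with the range between its quartiles (bars) and the number of genes tested in brackets; the grey band spans the quartiles of all 16704 genes. Mitosis genes lie lowest with a median of -2.72 and phase II enzymes highest with 1.63.

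The genes that fell most at P56 belonged to fetal hepatocytes, to developing blood cells and to dividing cells. Where a spot was saturated, or not well above background, on all arrays of a group, the fold change is given as a bound. The bound was taken from the Cy5 channel after loess and quantile normalization between arrays, which leaves it open to dye bias and on another scale than the log2 ratio. It can exceed the fold change of the log2 ratio, to which the adjusted p beside it belongs. Bounds are therefore not to be ranked against the fold changes of other genes. Afp encodes alpha-fetoprotein, the main plasma protein of the fetus, and its probe lies on chromosome 5 from 90479870 to 90479929 (mm7). Its log2 ratio was 7.10, 7.44 and 7.06 at E18.5 and 1.61, 0.78 and 0.39 at P56, and since it was saturated on the E18.5 arrays the change was at least 152-fold lower at P56 (adjusted p = 3.82e-09). S100a9, a calcium-binding protein of neutrophils, read 4.44, 4.78 and 4.67 at E18.5 and -3.60, -3.03 and -3.41 at P56, again saturated at E18.5, and was at least 72.4-fold lower (adjusted p = 1.84e-09). Grb10, an imprinted inhibitor of growth factor signaling, read 6.34, 5.81 and 5.80 at E18.5 and -0.28, -0.25 and -0.21 at P56. At P56 it was not well above background, and it was at least 143-fold lower (adjusted p = 9.07e-09). Scd2, the desaturase isoform best known from brain and fetal tissues, read 5.65, 5.47 and 5.45 at E18.5 and -1.31, -0.88 and -1.20 at P56, a 101-fold fall (log2 fold change -6.65, SE 0.18, adjusted p = 2.41e-10). Absence of overlap between the groups was a condition for naming the largest falls and rises, and 11738 of all 16704 genes tested met it.

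The largest rises were in secreted and metabolic proteins of the adult liver. Mup5, a major urinary protein that carries pheromones into the urine, was measured on chromosome 4 from 61268759 to 61268818 (mm7). It read -5.25, -4.92 and -5.10 at E18.5 and 4.26, 2.06 and 3.38 at P56, a 321-fold rise (log2 fold change 8.33, SE 0.42, adjusted p = 1.99e-08), with a log2 fold change of 8.91 without P56 replicate 2. Mup1 was saturated at P56 and rose at least 22.01-fold (adjusted p = 7.20e-07), with its other probes at 10.57 and 7.15 on the log2 scale. Mup genes are nearly identical in sequence, so their probes may read one another's transcripts, and the family is better read as 1 group. Nnmt, which methylates nicotinamide, read -3.56, -3.33 and -3.47 at E18.5 and 2.82, 3.78 and 3.87 at P56, a 123-fold rise (log2 fold change 6.94, SE 0.24, adjusted p = 1.21e-09). Thrsp, a thyroid hormone-responsive regulator of fat synthesis, rose 65.6-fold (log2 fold change 6.04, SE 0.16, adjusted p = 1.59e-10). Sucnr1, the succinate receptor, rose 42.8-fold, and Dio1, the deiodinase that activates thyroid hormone, rose 30.7-fold. Sucnr1 was well above background on only 1 E18.5 array. Adh4, an alcohol dehydrogenase, was -5.71, -5.30 and -5.13 at E18.5 and reached the level of the reference at P56 with -0.027, -0.025 and 0.23 (log2 fold change 5.44, SE 0.24, adjusted p = 6.78e-09). Nnmt, Thrsp, Sucnr1 and Mup5 went past it, with P56 means of 3.49, 3.27, 3.35 and 3.24 above the adult reference (limma adjusted p = 1.76e-08, 2.17e-09, 1.07e-08 and 1.98e-06). The P56 ratios thus lay away from 0 in these genes, without a dye swap to set dye bias apart. The age, sex and strain behind the reference RNA are not given in the sources used here.

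**Figure D2:**
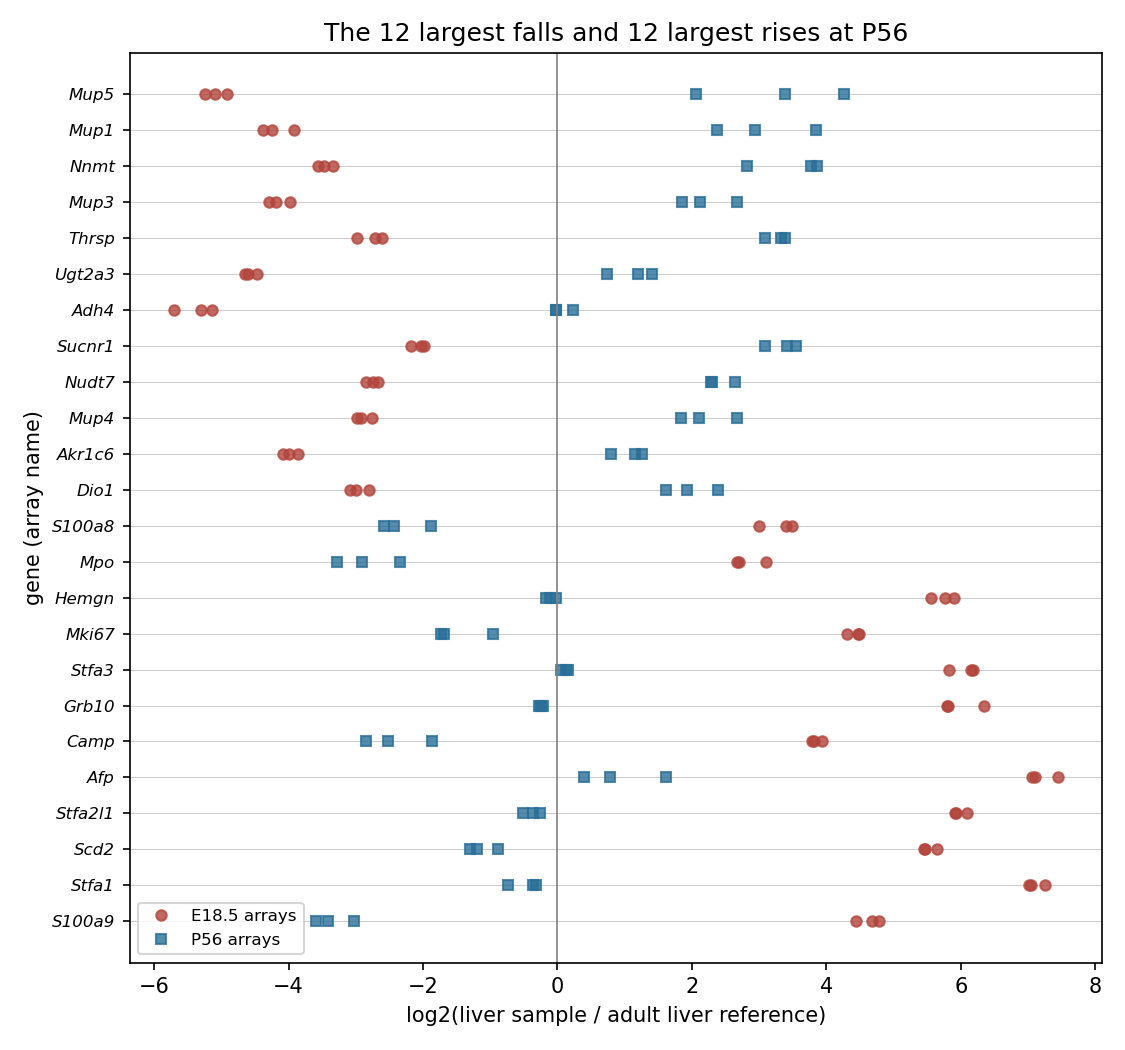
Log2 ratio of liver sample to adult liver reference on each of the 3 E18.5 arrays (circles) and 3 P56 arrays (squares) for the 12 largest rises and the 12 largest falls among genes with a symbol. The 24 genes were picked from those called without overlap between the groups, and 11738 of all 16704 genes tested showed no overlap. The P56 arrays of Hemgn, Stfa3, Stfa2l1 and Grb10 sit near 0, where these spots were not well above background.

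Most genes of drug-metabolizing enzymes rose. Of 55 cytochrome P450 genes tested, 40 rose, 2 fell and 13 were not called, against 31.2% higher and 33.6% lower among all genes, and their median log2 fold change was 1.21, or 0.54 with median centring. Cyp3a11, the main drug-oxidizing enzyme of adult mouse liver, read -2.84, -2.65 and -2.58 at E18.5 and -0.56, -0.086 and 0.46 at P56 (log2 fold change 2.63, SE 0.21, adjusted p = 7.22e-07). Cyp2e1, which oxidizes ethanol, rose by 1.90 and Cyp1a2, which oxidizes caffeine and aromatic amines, by 1.68 on the log2 scale. Both stayed under the reference, Cyp2e1 at -0.79, -1.88 and -1.06. Cyp3a16, known as a fetal and neonatal form, read -2.91, -3.17 and -2.95 at E18.5 and -0.83, 0.11 and 0.50 at P56 and so rose as well (log2 fold change 2.94, SE 0.26, adjusted p = 1.72e-06), but the Cyp3a genes are close paralogs whose probes may cross-read. Cyp2d26 went the other way, from 0.22, 0.089 and 0.11 down to -0.88, -1.46 and -1.22 (log2 fold change -1.33, SE 0.18, adjusted p = 5.86e-05).

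Phase II enzymes, which attach sugars, sulfate or glutathione to such products, gave 40 rises and 2 falls among 47 genes, with a median of 1.63. Ugt2a3, a glucuronosyltransferase, read -4.47, -4.65 and -4.60 at E18.5 and 1.41, 0.73 and 1.20 at P56, a 51.5-fold rise (log2 fold change 5.69, SE 0.17, adjusted p = 5.72e-10). Ugt2b5 rose 12.2-fold and Sult1d1, a sulfotransferase, 24.1-fold. The glutathione transferases Gsta3 and Gstm1 rose by 1.67 and 1.63 on the log2 scale. Gstm5 fell from 1.87, 1.80 and 1.68 to -0.43, -0.20 and -0.25 (log2 fold change -2.08, SE 0.092, adjusted p = 7.14e-09). Sult1a1 overlapped between the stages and was not called (log2 fold change 0.038, SE 0.12, adjusted p = 0.800).

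Bile acid synthesis and transport held 24 rises and 5 falls among 35 genes, with a median of 1.27 (0.62 with median centring). Cyp7a1, the rate-limiting enzyme of bile acid synthesis, read -0.36, -0.59 and -0.40 at E18.5 and 2.26, 2.26 and 2.53 at P56, a 6.96-fold rise (log2 fold change 2.80, SE 0.19, adjusted p = 1.89e-07), while its other probe read 0.85. Cyp8b1, which adds the hydroxyl group of cholic acid, rose 2.65-fold, but with median centring the log2 fold change was 0.51 and not called (adjusted p = 0.0875). Akr1c6, a hydroxysteroid dehydrogenase, rose 33.3-fold. The bile salt export pump Abcb11 was already near the reference at E18.5 and was not called, with -0.30, -0.11 and 0.021 at E18.5 and 0.071, -0.19 and 0.083 at P56 (log2 fold change 0.12, SE 0.15, adjusted p = 0.509). Among the falls, Abcg2, an exporter also found on blood progenitors, fell 3.26-fold (log2 fold change -1.70, SE 0.20, adjusted p = 1.77e-05), and Cyp39a1, an oxysterol hydroxylase, fell by 1.11 on the log2 scale.

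Enzymes of nitrogen disposal and amino acid breakdown gave 40 rises and 2 falls among 53 genes, with a median of 1.08 (0.51 with median centring). Tdo2, which opens the tryptophan ring, read -3.73, -3.52 and -3.52 at E18.5 and 0.58, 0.12 and 0.68 at P56, a 16.6-fold rise (log2 fold change 4.05, SE 0.14, adjusted p = 9.85e-10). Prodh, the proline dehydrogenase, rose 13.9-fold, and Sds, which deaminates serine, 7.98-fold. Tat, which starts tyrosine breakdown, rose by 3.13 on the log2 scale. Within the urea cycle the genes differed. Otc rose from -2.31, -1.94 and -1.79 to 0.93, 0.71 and 0.65 (log2 fold change 2.77, SE 0.15, adjusted p = 1.03e-07). Cps1, the entry enzyme of the cycle, was not called (log2 fold change -0.32, SE 0.16, adjusted p = 0.0953), but was lower with an adjusted p of 0.0172 without E18.5 replicate 2 and 0.0324 without P56 replicate 3. Fah, the last enzyme of tyrosine breakdown, fell by 0.83 on the log2 scale, against the direction of the list.

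Genes of glucose and hexose handling moved in both directions. Of 32 genes, 11 rose and 16 fell, with a median of -0.48, or -1.04 with median centring. Pck1, the gatekeeper enzyme of gluconeogenesis, read -5.14, -5.07 and -5.11 at E18.5 and -1.19, -1.89 and -0.99 at P56, a 13.5-fold rise (log2 fold change 3.75, SE 0.18, adjusted p = 1.49e-08). Khk, the first step of fructose use, rose 15.1-fold. G6pc, which releases free glucose, rose too (log2 fold change 1.17, SE 0.38, adjusted p = 0.0165), with a log2 fold change of 0.61 without P56 replicate 1, the highest array, and was not called with median centring (0.56, adjusted p = 0.360), the authors' table (adjusted p = 0.0631) or the methods' t-test (adjusted p = 0.176). Fbp1 was not called (log2 fold change 0.10, SE 0.16, adjusted p = 0.595). Slc2a1, the widespread glucose transporter, read 2.46, 2.70 and 2.29 at E18.5 and -1.29, -0.50 and -0.63 at P56, a 9.78-fold fall (log2 fold change -3.29, SE 0.19, adjusted p = 4.90e-08), and Ldha, lactate dehydrogenase A, fell 6.54-fold. The probe that stood for Hk1 fell by 3.30 on the log2 scale, while its 5 other probes lay between -0.94 and 0.11, so the direction of Hk1 depends on the probe.

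Lipid genes moved in both directions. Fatty acid oxidation and ketogenesis gave 19 rises (43.2%) and 11 falls (25%) among 44 genes, against 31.2% and 33.6% of all genes. The list median of 0.30 turned to -0.26 with median centring. Acsl1, which activates long-chain fatty acids, fell from 0.52, 0.57 and 0.55 to -0.48, -1.52 and -1.41 (log2 fold change -1.69, SE 0.23, adjusted p = 5.61e-05), and Acadm, the medium-chain dehydrogenase, fell 2.49-fold. Cpt1a, the mitochondrial gate for fatty acids, was not called (log2 fold change 0.062, SE 0.12, adjusted p = 0.658) and with median centring was called lower (-0.57, adjusted p = 0.0248). Its other probe read 0.64, and the mean over probes was called higher (0.349, adjusted p = 0.00688). Bdh2, a short-chain dehydrogenase, rose 14.8-fold and had the largest change of the list. Fatty acid and triglyceride synthesis gave 16 rises and 5 falls among 26 genes, with a median of 0.62, or -0.0698 with median centring. Fasn, the fatty acid synthase, read 0.46, 0.32 and 0.42 at E18.5 and 2.12, 1.44 and 0.80 at P56, a 2.07-fold rise (log2 fold change 1.05, SE 0.25, adjusted p = 0.00300), and Scd1, the adult hepatic desaturase, rose 4.73-fold, opposite to Scd2. Cholesterol synthesis gave 11 rises (40.7%) and 8 falls (29.6%) among 27 genes, with a median of 0.21 that turned to -0.34 with median centring. Idi1 was higher by 1.66 and Lss lower by 1.85 on the log2 scale. Lpl, the lipase that adult liver makes little of, went from 2.00, 1.83 and 2.20 to -3.14, -2.67 and -2.98, a 30.8-fold fall (log2 fold change -4.94, SE 0.16, adjusted p = 7.66e-10).

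Secreted plasma proteins did not move together. Of 55 genes, 24 rose (43.6%), 19 fell (34.5%) and 12 were not called, against 31.2% higher and 33.6% lower among all genes. Their median was 0.14, or -0.029 with median centring. Apoc3, an inhibitor of lipase action, read -2.71, -2.57 and -2.47 at E18.5 and 1.00, 1.67 and 1.57 at P56, a 16.0-fold rise (log2 fold change 4.00, SE 0.17, adjusted p = 4.75e-09), and Apoa4, an intestinal and hepatic apolipoprotein, rose 4.79-fold. Apoa1, the main protein of HDL, fell 2.76-fold. Alb1, the albumin gene, was saturated at E18.5 and fell at least 1.72-fold, from ratios of 0.56, 1.12 and 1.00 to -0.48, -0.66 and -0.41 (adjusted p = 7.75e-06). Trf, transferrin, was saturated as well and fell at least 3.26-fold (adjusted p = 2.43e-08). Itih3, an inter-alpha-trypsin inhibitor chain, fell 8.80-fold. Hamp2, a hepcidin paralog, read -2.39, -2.10 and -2.05 at E18.5 and 0.82, 3.76 and 2.89 at P56, with a log2 fold change of 4.67 ± 0.55 (SE) that was 5.50 without P56 replicate 1 and 4.03 without P56 replicate 2.

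Coagulation genes gave 6 rises and 15 falls among 28, with a median of -0.45, or -0.75 with median centring. Fga, a fibrinogen chain, read -0.56, -0.24 and -0.22 at E18.5 and -2.25, -3.45 and -2.95 at P56, a 5.83-fold fall (log2 fold change -2.54, SE 0.23, adjusted p = 1.91e-06). F9, the clotting factor IX gene, rose from -1.40, -1.54 and -1.50 to 0.63, 0.49 and 0.64, a 4.18-fold change with no overlap (log2 fold change 2.06, SE 0.094, adjusted p = 9.19e-09). A2m, a broad protease inhibitor, was not well above background at P56. Its log2 fold change was -4.05 (adjusted p = 1.22e-07), while the bound from Cy5 was a fall of at least 118-fold, and another A2m probe read -1.80. Mug1, a murinoglobulin and relative of A2m, rose 6.17-fold. Complement genes gave 13 rises (40.6%) and 10 falls (31.25%) among 32, against 31.2% and 33.6% of all genes. C9, which forms the membrane pore, rose by 3.07 on the log2 scale and C4bp, a complement inhibitor, by 4.45, but a dimmer probe of C4bp read 0.32.

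Fetal and imprinted growth genes fell almost throughout. Of 37 tested, 30 fell, 2 rose and 5 were not called, with a median of -1.96, and 14 were not well above background at P56. Dlk1, a surface protein of hepatoblasts, read 4.54, 4.69 and 4.64 at E18.5 and -0.14, -0.20 and -0.033 at P56. Its log2 fold change was -4.75 (adjusted p = 3.50e-09), while the bound from Cy5 was a fall of at least 184-fold. Igf2, the fetal growth factor, read 4.46, 4.83 and 4.66 at E18.5 and 0.51, -0.0047 and -0.11 at P56, a 22.9-fold fall (log2 fold change -4.52, SE 0.20, adjusted p = 7.53e-09), and H19, its imprinted neighbor, fell 12.2-fold. The Igf2 probe was well above background on only 1 P56 array, so the size of its fall is uncertain. Gpc3, a glypican that restrains growth, read 5.22 and 5.10 on the E18.5 arrays with a value and 0.12, 0.21 and 0.23 at P56 (log2 fold change -4.97, SE 0.10, adjusted p = 1.41e-10). Cd24a, a surface glycoprotein of progenitor and immature blood cells, fell 33.8-fold, and Cdkn1c, an imprinted inhibitor of the cell cycle, 12.5-fold.

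Genes of the growth hormone and IGF axis moved in both directions. Igf1, the postnatal growth factor made under growth hormone, read -3.62, -3.37 and -3.30 at E18.5 and 0.025, 0.031 and 0.22 at P56, an 11.5-fold rise (log2 fold change 3.52, SE 0.13, adjusted p = 1.76e-09). Ghr, the growth hormone receptor, rose from -1.95, -1.90 and -1.86 to 0.41, 0.43 and 0.43 with very little spread at P56 (log2 fold change 2.33, SE 0.098, adjusted p = 4.75e-09), while dimmer probes read 0.24 and 0.70. Igfbp1, a binding protein induced by fasting and low insulin, was saturated at E18.5 with 4.47, 5.09 and 4.73 and read 1.28, -1.09 and -1.01 at P56. It fell at least 10.3-fold (adjusted p = 4.06e-06), and P56 replicate 1 stood above the other P56 arrays, without which the log2 fold change was -5.81 instead of -5.03. Igfbp2 fell 2.01-fold. The list of these genes with the Mup family and thyroid genes gave 19 rises and 9 falls among 37, with a median of 0.43 that turned to -0.35 with median centring.

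Transcription factors of the hepatocyte rose more often than they fell. Of 49 factors and nuclear receptors, 27 rose, 6 fell and 16 were not called, with a median of 0.52, or -0.18 with median centring. Hnf4a, a central regulator of hepatocyte identity, was higher by 0.55 ± 0.11 (SE) with an adjusted p = 0.00102, but lower by 0.14 with median centring, where it was not called. Cebpa, a regulator of metabolic genes, was not called (log2 fold change -0.35, SE 0.15, adjusted p = 0.0627), with its other probe at 0.75, and was called lower with median centring (-1.13, adjusted p = 0.000679), with the 6 arrays alone (adjusted p = 0.0351) and without P56 replicate 1 (adjusted p = 0.0473). Rxra, the shared partner of many nuclear receptors, read -1.43, -1.13 and -1.22 at E18.5 and -1.12, -1.23 and -1.35 at P56 and was not called (log2 fold change 0.032, SE 0.11, adjusted p = 0.807). Its other probe, above background on all 6 arrays, read 0.94, and Rxra was called higher with the mean over probes (0.487, adjusted p = 0.00112) and with the authors' table (0.751, adjusted p = 0.00935), so its call depends on the probe. Larger rises were found in a drug receptor and in clock genes. Nr1i3, the drug-sensing receptor CAR, rose 2.51-fold. Nr1d2, a clock repressor, read -1.98, -2.10 and -2.07 at E18.5 and 1.25, 1.37 and 1.33 at P56, a 10.3-fold rise (log2 fold change 3.37, SE 0.14, adjusted p = 4.75e-09), and Dbp, a clock output factor, rose by 1.75 on the log2 scale. The hour of tissue collection is not given in the sources used here.

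Genes known for the pericentral and the periportal end of the adult liver lobule both rose, 22 of 27 and 18 of 26, with medians of 0.98 and 0.97 (0.30 and 0.42 with median centring). On the pericentral side, Slc1a2, a glutamate transporter, read -2.71, -2.58 and -2.74 at E18.5 and 0.33, 0.13 and 0.48 at P56 (log2 fold change 2.99, SE 0.21, adjusted p = 2.24e-07), and Rhbg, an ammonium channel, rose 3.96-fold. Axin2, a feedback inhibitor and target of Wnt signaling, rose 1.84-fold, but was not called with median centring (adjusted p = 0.0826) or with the Cy5 channel alone (adjusted p = 0.117). Its probe was well above background on all 3 E18.5 arrays but on only 1 P56 array. Glul, glutamine synthetase, was only just called (log2 fold change 0.41, SE 0.14, adjusted p = 0.0241), overlapped between the stages, read -0.034 with median centring and was not called without E18.5 replicate 2 (adjusted p = 0.108), P56 replicate 1 (0.0964) or P56 replicate 3 (0.0683). On the periportal side, Gls2, the liver glutaminase, rose 2.85-fold, and Cyp2f2, a marker of this zone, rose 4.30-fold. Car2, listed as pericentral but also an enzyme of red cells, fell 14.7-fold, and Cdh1, E-cadherin, fell 4.27-fold.

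Markers of blood formation were far higher on the E18.5 arrays. Of 53 erythroid genes, 51 fell at P56, 1 rose and 1 was not called, with a median log2 fold change of -2.68. The median over these genes was 2.67 to 2.82 on the E18.5 arrays and -0.049 to 0.0073 on the P56 arrays, where 17 of the genes were not well above background, so that a ratio near 0 does not give their level there. Hemgn, a nuclear protein of erythroid precursors, read 5.55, 5.77 and 5.90 at E18.5 and -0.11, -0.020 and -0.17 at P56. It fell at least 93.4-fold in Cy5 (log2 fold change of the ratio -5.84, adjusted p = 1.54e-09). Rhd, a Rhesus blood group gene, fell at least 148-fold in Cy5 (log2 fold change of the ratio -4.82, adjusted p = 4.67e-11). Both were not well above background at P56. Slc25a37, the mitochondrial iron carrier mitoferrin, read 4.51, 4.83 and 4.66 at E18.5 and -0.50, -0.69 and -0.76 at P56, a 39.9-fold fall (log2 fold change -5.32, SE 0.14, adjusted p = 1.59e-10). The globin probes were bright. Hba-a1 was saturated at E18.5 and fell at least 11.9-fold (adjusted p = 8.07e-08), and Hbb-b1, also saturated, fell at least 2.94-fold (adjusted p = 1.09e-08), and these probes may also read their globin paralogs. Hbb-y, an embryonic globin, was higher on E18.5 replicate 1 than on the other E18.5 arrays, with 5.12, 3.61 and 3.53 at E18.5 and 0.59, 0.51 and 0.42 at P56 (log2 fold change -3.58, SE 0.39, adjusted p = 7.64e-06). The exception was Fn3k, a repair kinase for glycated proteins, which rose by 1.25, but another probe read -0.24 and the authors' table gave -0.0040.

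Neutrophil and myeloid precursor genes gave 36 falls and 1 rise among 41, with a median of -2.11, and 20 were not well above background at P56. Mpo, the granule enzyme myeloperoxidase, read 3.10, 2.70 and 2.68 at E18.5 and -3.28, -2.34 and -2.91 at P56, a 50.8-fold fall (log2 fold change -5.67, SE 0.21, adjusted p = 1.86e-09). Camp, an antimicrobial peptide of granules, fell 76.5-fold, Ngp, a neutrophil granule protein, 16.3-fold, and S100a8, the partner of S100a9, 48.3-fold. Ngp and the Stfa1 probe used below were each well above background on only 1 P56 array. The stefin genes Stfa1 and Stfa2l1 fell as well, Stfa1 from 7.02, 7.25 and 7.04 to -0.31, -0.37 and -0.74. Stfa2l1, not well above background at P56, had a log2 fold change of -6.36 and a bound from Cy5 of at least 213-fold lower. Stfa1 and Stfa2l1 are near-identical copies whose values cannot be separated. Megakaryocyte and platelet genes gave 21 falls and 1 rise among 23, with a median of -1.19. Cxcl4, platelet factor 4, fell 15.8-fold, and Cxcl7, platelet basic protein, 13.9-fold. The median over the neutrophil and myeloid list was 1.59 to 1.80 on the E18.5 arrays and -0.59 to -0.29 on the P56 arrays. The part that these cells had in the falls of genes outside the blood lists was not tested.

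**Figure D3:**
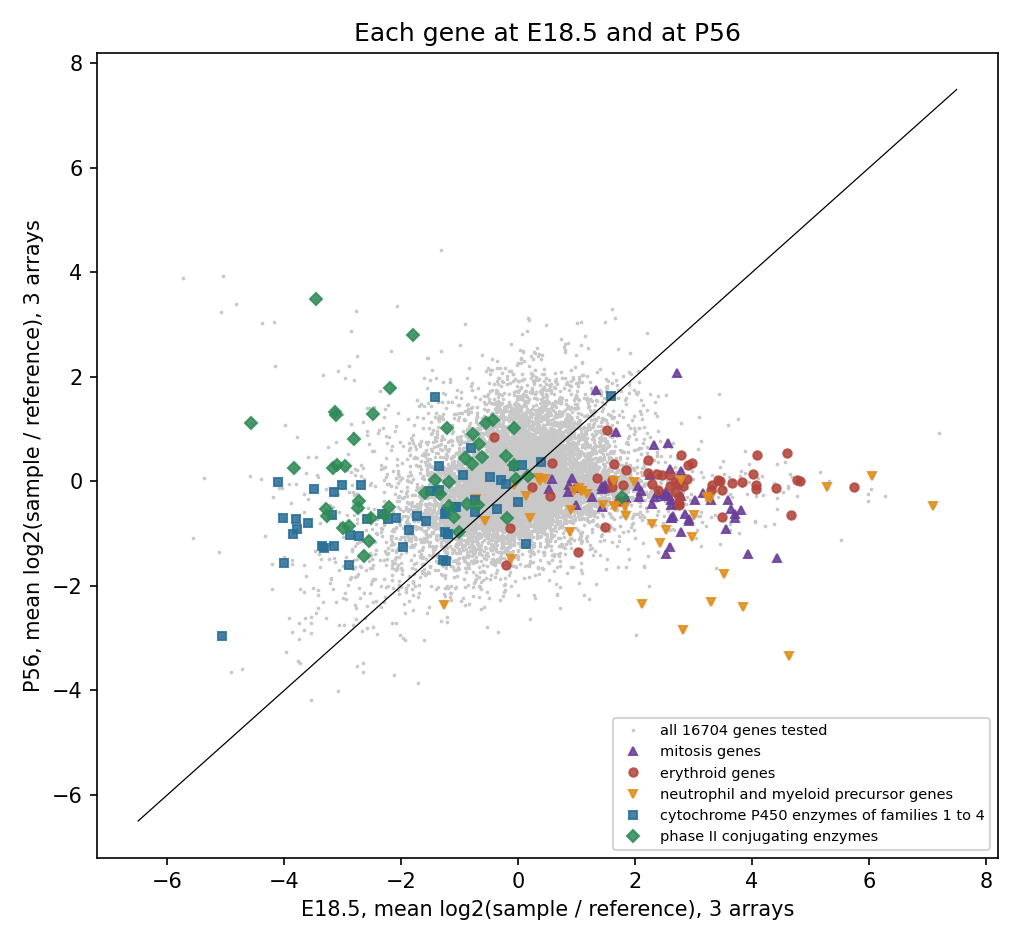
Mean log2 ratio to the adult reference at E18.5 (horizontal axis) and P56 (vertical axis) for all 16704 genes tested, with 5 gene lists marked and a line of equal values. Erythroid and mitosis genes spread far to the right at E18.5 while lying near 0 at P56; most P450 and phase II genes lie on the left and above the line.

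Genes of the resident non-hepatocyte cells had list medians nearer to 0 than the blood cell lists. Of 38 Kupffer cell and macrophage genes, 22 fell, 3 rose and 13 were not called, with a median of -0.56, or -1.18 with median centring. Marco, a scavenger receptor, read -1.93, -1.61 and -1.57 at E18.5 and -4.13, -3.66 and -3.78 at P56, a 4.45-fold fall (log2 fold change -2.15, SE 0.18, adjusted p = 1.21e-06), and Emr1, the F4/80 antigen, fell 2.30-fold with no value on P56 replicate 3, a call lost in the authors' table (adjusted p = 0.112). Cd163, the receptor for haptoglobin and hemoglobin, went the other way, from -1.97, -2.21 and -1.96 to -0.35, 0.13 and 0.10 (log2 fold change 2.01, SE 0.16, adjusted p = 7.29e-07). Endothelial genes gave 22 falls and 8 rises among 44, with a median of -0.25, or -0.86 with median centring. Stab2, a sinusoidal scavenger receptor, fell 1.73-fold, while Clec4g, a lectin of sinusoidal endothelium, rose from -1.90, -2.19 and -1.86 to -0.60, 0.041 and -0.38 (log2 fold change 1.67, SE 0.16, adjusted p = 2.75e-06), a call lost in the authors' table (adjusted p = 0.129). Wnt2, a ligand made by these cells, rose 2.38-fold, but with median centring the log2 fold change was 0.34 and not called (adjusted p = 0.117).

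Stellate and mesenchymal genes gave 31 falls and 6 rises among 58, with a median of -0.54, or -0.91 with median centring. Col1a1, a chain of type I collagen, read 1.12, 1.34 and 1.15 at E18.5 and -2.09, -1.88 and -2.76 at P56, a 10.9-fold fall (log2 fold change -3.45, SE 0.21, adjusted p = 8.49e-08), and Nid1, a basement membrane protein, and Vim, vimentin, fell by 3.34 and 2.84 on the log2 scale. Lrat, which esterifies retinol for storage in stellate cells, rose 2.99-fold. Biliary genes gave 16 falls and 3 rises among 25, with a median of -0.73, or -1.33 with median centring. Krt19, a bile duct keratin, was lower by 0.65 and Sox9, a progenitor and duct factor, by 1.01 on the log2 scale. Both were well above background on only 1 P56 array.

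Immune genes moved in both directions, as did all genes tested (31.2% higher, 33.6% lower). Among 40 T, NK and B lymphocyte genes, 17 rose (42.5%) and 12 fell (30%), with a median of 0.28 that was -0.052 with median centring. Zap70, a kinase of the T cell receptor, rose from -1.41, -1.03 and -1.31 to 0.88, 1.71 and 2.43 (log2 fold change 2.92, SE 0.33, adjusted p = 9.91e-06). Vpreb1, the surrogate light chain of B cell precursors, fell from 3.76, 4.08 and 4.02 to 0.24, 0.23 and 0.52 (log2 fold change -3.62, SE 0.26, adjusted p = 3.38e-07), and Igh-6, the mu heavy chain, fell 6.83-fold. Dntt, the polymerase of lymphocyte precursors that adds bases at antigen receptor joints, rose by 2.64 on the log2 scale (adjusted p = 1.17e-05). Genes of antigen presentation gave 16 rises (38.1%) and 13 falls (31.0%) among 42, with a median of 0.09, or -0.32 with median centring. H2-K1, a class I molecule, and its partner B2m rose by 0.89 and 0.76, the latter not called with median centring (adjusted p = 0.0563). Rsad2, the antiviral enzyme viperin, read 3.23, 3.60 and 4.07 at E18.5 and -0.82, -0.89 and -1.09 at P56, a 23.7-fold fall (log2 fold change -4.57, SE 0.22, adjusted p = 1.45e-08), and Isg15 fell 5.73-fold, with E18.5 replicate 3 highest in both genes.

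Genes of DNA replication and of mitosis fell almost without exception. Mitosis genes gave 57 falls and 1 rise among 58, with a median of -2.72, and 24 were not well above background at P56. The median over these genes was 2.45 to 2.56 on the E18.5 arrays. Mki67, the proliferation marker Ki-67, read 4.30, 4.49 and 4.48 at E18.5 and -1.73, -0.96 and -1.69 at P56, a 59.1-fold fall (log2 fold change -5.88, SE 0.19, adjusted p = 7.92e-10). Birc5, survivin, fell 40.3-fold, and Cdc2a, the mitotic kinase Cdk1, fell from 2.32, 2.26 and 2.30 to -0.37, -0.27 and -0.69 (log2 fold change -2.74, SE 0.18, adjusted p = 1.84e-07). Cdc2a was well above background on only 1 P56 array. Top2a, the topoisomerase that untangles chromosomes, and Ccnb1, cyclin B1, were not well above background at P56 and fell at least 8.42-fold and at least 5.88-fold (adjusted p = 5.91e-06 and adjusted p = 7.56e-07). The 1 rise was Pttg1, securin, which was higher by 0.41 ± 0.12 (SE, adjusted p = 0.0117), but lower by 0.27 with median centring and not called without E18.5 replicate 1 (adjusted p = 0.0548).

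Replication and S phase genes gave 51 falls and 3 rises among 54, with a median of -1.99. Mcm6, a subunit of the replicative helicase, read 2.21, 2.28 and 2.22 at E18.5 and -2.37, -1.57 and -2.05 at P56, a 18.8-fold fall (log2 fold change -4.23, SE 0.16, adjusted p = 7.62e-09), and Mcm4 fell 20.5-fold and Mcm2 15.2-fold. Pcna, the sliding clamp, fell 8.46-fold, with 0.18, -0.034 and 0.11 at P56. Uhrf1, which keeps DNA methylation after replication, was not well above background at P56 and fell at least 22.2-fold (adjusted p = 2.08e-08). Of the rises, Mcm10 was higher by 1.09 (not called with median centring, adjusted p = 0.0928), and E2f8 by 3.90 on the probe that stood for it, while its other probe fell by 1.99 and the Cy5 channel alone gave -1.96, so its direction depends on the probe.

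The promoters of these genes were searched for short sequence motifs, and whether a motif bears on the falls was not tested. The promoters were taken from RefSeq on GRCm38.p6, whose promoter table held 48 of the 58 mitosis genes and 44 of the 54 replication genes. Motifs were searched on both strands in 300 bases around each start site. The CHR element TTTGAA was found in 68.8% of the mitosis promoters, against 18.1% of all 27025 promoters in the table and 13% of those of the genes tested. Among all genes called lower at P56 the share was 12.9%. The CCAAT box, CCAAT, was found in 72.9%, against 37.9% and 38.6%. Shares above those of all promoters were not confined to mitosis genes. The CCAAT box was found in 83.3% of the promoters of the cholesterol list. The CHR element was found in 33.3% of those of the P450 list, fewer than among mitosis genes. Among replication genes, the E2F site TTTCGCGC was found in 11.4% and its form TTTGGCGC in 15.9%, against 0.609% and 0.9% of the genes tested. These were 5 and 7 of the 44 promoters, so most replication promoters held neither form. The 2 E2F forms can overlap each other when they lie on opposite strands. A match is a run of letters and not a measured binding site. The 250 bases before the start site follow, all on the minus strand and written 5′ to 3′, with matches in capitals on either strand (CCAAT or its reverse complement ATTGG, and TTTGAA or TTCAAA). The promoter of Mki67 is chr7:135716380-135716629, that of Top2a chr11:99024190-99024439 and that of Cdc2a chr10:69352913-69353162, with CCAAT boxes and CHR elements marked. The promoter of Mcm6, chr1:128359706-128359955, has E2F forms and CCAAT boxes marked.
Mki67: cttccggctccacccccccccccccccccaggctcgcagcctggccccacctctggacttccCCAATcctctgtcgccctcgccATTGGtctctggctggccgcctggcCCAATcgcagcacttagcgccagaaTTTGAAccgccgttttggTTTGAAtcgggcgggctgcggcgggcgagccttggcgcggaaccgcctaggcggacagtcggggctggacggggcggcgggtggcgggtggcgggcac
Top2a: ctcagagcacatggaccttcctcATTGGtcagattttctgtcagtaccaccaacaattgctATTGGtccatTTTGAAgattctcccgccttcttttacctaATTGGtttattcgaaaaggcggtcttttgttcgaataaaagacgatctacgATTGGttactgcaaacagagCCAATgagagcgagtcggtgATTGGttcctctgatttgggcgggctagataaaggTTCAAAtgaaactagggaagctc
Cdc2a: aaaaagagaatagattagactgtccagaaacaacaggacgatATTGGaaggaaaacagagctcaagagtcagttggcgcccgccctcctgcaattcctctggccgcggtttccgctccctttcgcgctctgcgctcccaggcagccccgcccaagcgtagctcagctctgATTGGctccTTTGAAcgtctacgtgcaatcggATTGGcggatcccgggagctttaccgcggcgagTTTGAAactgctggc
Mcm6: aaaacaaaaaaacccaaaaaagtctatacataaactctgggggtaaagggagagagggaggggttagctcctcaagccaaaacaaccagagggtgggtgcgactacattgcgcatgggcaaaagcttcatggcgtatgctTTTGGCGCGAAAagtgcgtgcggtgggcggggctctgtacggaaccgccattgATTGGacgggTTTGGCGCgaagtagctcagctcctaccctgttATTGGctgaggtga

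Regulators of the cell cycle outside these lists were mixed. Of 40 cyclins, inhibitors and growth regulators, 20 fell and 7 rose, with a median of -0.42, or -1.18 with median centring. Ccnd1, cyclin D1, overlapped between the stages and was not called (log2 fold change -0.31, SE 0.18, adjusted p = 0.138), though it was called lower with median centring (-1.19, adjusted p = 4.00e-06) and without P56 replicate 2 (adjusted p = 0.0439). Ccnd3, cyclin D3, fell by 2.42 on the log2 scale. Cdkn1a, the inhibitor p21, was not well above background at P56 and fell at least 2.23-fold (adjusted p = 1.20e-05). Gadd45g, a stress-induced growth regulator, rose by 1.94. Chromatin enzymes gave 27 falls and 7 rises among 43, with a median of -0.57, or -1.03 with median centring. Ezh2, the catalytic subunit of Polycomb repressive complex 2, fell from 1.75, 1.89 and 1.86 to -0.26, 0.0027 and -0.27 (log2 fold change -2.01, SE 0.13, adjusted p = 1.78e-07), and Hmgb2, a chromatin protein of dividing cells, fell 28.4-fold. Cbx7, a Polycomb protein, rose by 1.09, but was not called with median centring (adjusted p = 0.120).

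The study's own lists of RXR-α and Wnt pathway genes, chosen by it on these samples among others and so no independent evidence of a direction, split at P56. Of the 79 RXR-α genes tested, 33 rose (41.8%), 23 fell (29.1%) and 23 were not called, against 31.2% higher and 33.6% lower among all genes. Their median was 0.21, or -0.23 with median centring. Aldh1a1, which makes retinoic acid, read -5.96, -5.39 and -5.35 at E18.5 and -0.82, -1.50 and -0.96 at P56 (log2 fold change 4.47, SE 0.20, adjusted p = 7.82e-09), and Abca1, a cholesterol exporter, fell by 1.79 on the log2 scale. Ppara, the receptor of the fasting response, fell by 0.54. Of the 57 Wnt genes, 16 rose (28.1%) and 24 fell (42.1%), with a median of -0.05, or -0.60 with median centring. Psma3, a proteasome subunit, rose by 1.15, while Ubb, the largest change of the Wnt list, had a log2 fold change of -1.45.

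The arrays of each stage were not alike in genes of the sex chromosomes, and the labels give no sex. Xist, the RNA that silences 1 X chromosome in female cells, read 4.45, 0.016 and -0.020 at E18.5 and -0.056, 4.03 and 5.18 at P56, and was high on E18.5 replicate 1 and on P56 replicates 2 and 3. Eif2s3y, a gene of the Y chromosome, ran opposite with -2.71, 0.62 and 0.28 at E18.5 and 1.53, -1.21 and -2.02 at P56. Ddx3y, another Y gene, which did not pass the brightness filter and was picked after its values were seen, read -1.74, 0.77 and 0.92 at E18.5 and 1.06, -0.55 and -1.28 at P56. In the Cy3 channel of the reference, the Ddx3y and Eif2s3y probes were well above background on 6 arrays and this Xist probe on 0. Another Xist probe was so on 2 arrays, and probes of Uty, also a Y gene, on 0 or 6. Neither Xist (log2 fold change 1.57, SE 1.43, adjusted p = 0.354) nor Eif2s3y (log2 fold change 0.037, SE 1.20, adjusted p = 0.981) was called between the stages, but Xist was called without P56 replicate 1 (log2 fold change 3.12, adjusted p = 0.0492).

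Liver genes known to differ between adult male and female mice also differed between the P56 arrays. Of 25 genes higher in females, 17 rose and 4 fell, and the list median was -0.83, -0.030 and 0.32 on P56 replicates 1, 2 and 3. Of 20 genes higher in males, 17 rose and none fell, with medians of 0.98, -0.13 and 0.044 on the same arrays. Sult3a1, a sulfotransferase of females, read -2.73, -2.35 and -2.38 at E18.5 and -2.34, 2.84 and 3.39 at P56, where P56 replicate 1 lay closer to the E18.5 arrays than the other P56 arrays did. It had a log2 fold change of 3.79 ± 1.12 (SE, adjusted p = 0.0105). Without P56 replicates 1, 2 and 3 it was 5.61, 3.01 and 2.74, the last no longer called (adjusted p = 0.0540). Cyp2b9 read -2.04, -0.53 and -0.47 at P56 and Cyp3a41 -0.82, 0.15 and 0.61, again with replicate 1 lowest.

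The genes of males ran the other way. Elovl3, a fatty acid elongase, read -1.28, -1.26 and -1.31 at E18.5 and 2.69, 0.29 and 0.61 at P56, and rose by 2.48 ± 0.48 (SE, adjusted p = 7.15e-04), or 1.73 without P56 replicate 1. Hsd3b5, a steroid dehydrogenase, read 2.53, 0.36 and 0.83 at P56 and rose by 2.55, or 1.90 without that array. Cyp7b1, which hydroxylates oxysterols, rose by 3.93, or 3.30 without it, and Slco1a1, an organic anion importer, rose by 3.97. Cyp2d9, a testosterone hydroxylase, was not called (log2 fold change -0.21, SE 0.33, adjusted p = 0.602) but fell by 0.73 without P56 replicate 1 (adjusted p = 0.00113). For all 4 rising genes every P56 array lay above every E18.5 array, and 11738 of all 16704 genes tested showed no overlap in either direction. How far the sex of the animals entered the other results was not tested.

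**Figure D4:**
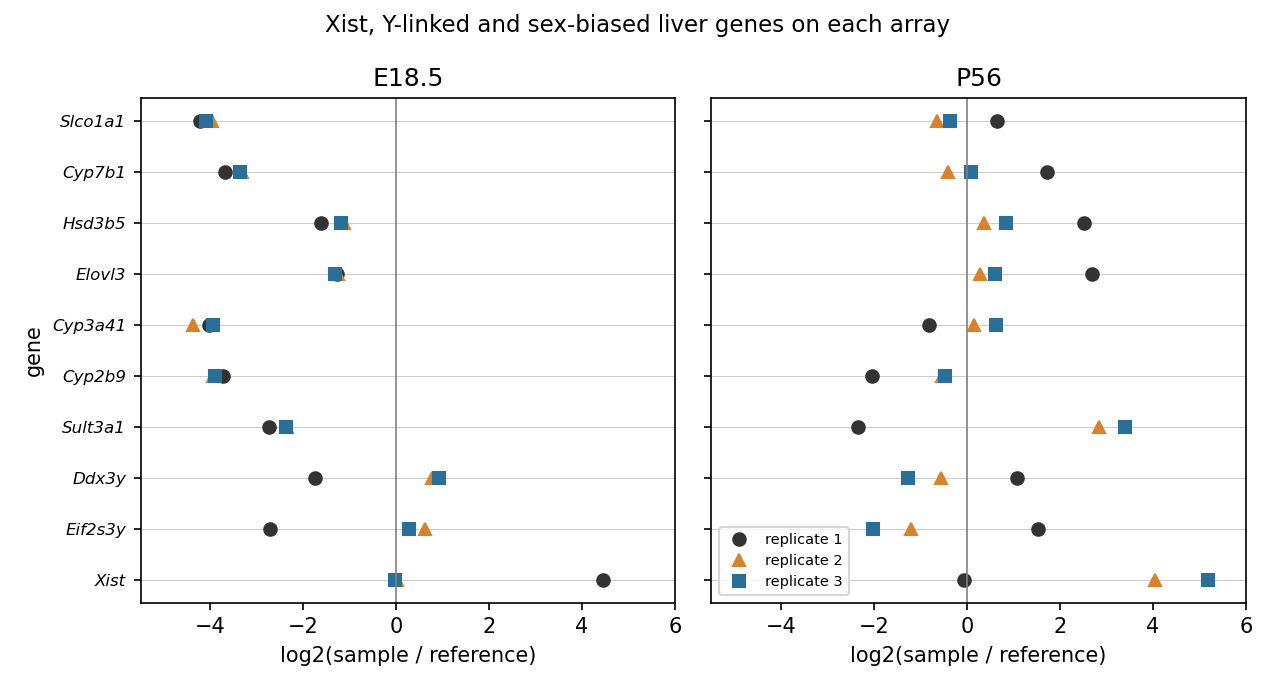
Log2 ratio to the adult reference on each E18.5 array (left) and each P56 array (right) for Xist, Eif2s3y, Ddx3y, the female-biased genes Sult3a1, Cyp2b9 and Cyp3a41, and the male-biased genes Elovl3, Hsd3b5, Cyp7b1 and Slco1a1. Replicate 1 stands apart from replicates 2 and 3 at both stages for Xist, and at P56 for the sex-biased genes, which at E18.5 lie close together.

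Genes of neighboring tissues gave no common direction. Of 20 pancreatic acinar genes, 5 rose and 4 fell. Pnliprp1, a lipase relative, was lower by 2.24 and Amy2, pancreatic amylase, lower by 1.12 on the log2 scale, while Reg2, the highest of the list, read 1.14. The median of the acinar list lay below the reference at both stages, with -1.80, -1.76 and -2.24 at E18.5 and -2.41, -1.92 and -2.10 at P56. Of 17 skeletal muscle genes 2 rose and 3 fell, and of 13 genes of intestine and stomach 4 rose and 4 fell, where Fabp2, a fatty acid-binding protein known from the intestine, rose from -3.19, -2.92 and -3.23 to 0.29, 1.099 and 0.90 (log2 fold change 3.88, SE 0.21, adjusted p = 2.92e-08).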

How the data were processed

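The authors deposited the spot intensity of both channels as Agilent Feature Extraction 9.5.1.1 wrote it, with local background and quality marks, without normalization between arrays and with mm7 coordinates. The authors also deposited a table of normalized log2 ratios per gene, which entered only as an alternative. The scanner software's log10 ratios in the deposited files were not used. No column belonged to samples of another series (0 columns).

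Mean signals were corrected for the median local background by limma's normexp method (offset 50), after which loess was run within each array. Control spots were dropped, as were 177 to 356 spots per array with outlier marks, and repeat spots of a probe were averaged. Probes had to be well above background in Cy5 on every array of some stage, with no more than 1 missing value per stage, and a gene was read from its brightest probe. On the E18.5 and P56 arrays 65 genes lacked a value and were fitted without it. All 11 arrays of the 4 stages entered 1 linear model per gene (R 4.3.3, limma 3.58.1, lmFit followed by eBayes), and genes with a Benjamini-Hochberg adjusted p under 0.05 were called. On simulated data for P56 against E18.5, 187 of 200 changed genes were called in the right direction, with 12 false calls among the unchanged genes. The simulation drew independent normal values with the same spread at every stage and no scan effect. It shifted only these 200 genes, while 64.8% of genes were called in the data, so it does not give the error rate of these arrays. The number of arrays limits the precision.

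Genes carry the names of the array design, and RefSeq (GRCm38.p6) gives 2655 of the 11733 matched genes another symbol. The genes that could be named were the 12 largest rises and 12 largest falls without overlap between stages and, per list, up to 4 lead genes, 3 further genes with the largest change and 2 against the list. The comparison, the gene lists and the lead genes were chosen with earlier results of these data known. Lists were described by counts and medians only. Alternatives were other background corrections, normalizations, filters and probe choices, the Cy5 channel alone, the authors' table, the 6 arrays alone, the scan or the replicate number as a block, each array left out and the methods' t-test. Some genes of these lists are counted but not reported here by name.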

Additional observations from a re-analysis of the deposited data

How the results depend on the processing

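The counts of genes higher and lower at P56 were 5208 and 5609. Median centring in place of loess gave 1577 higher and 8988 lower, with a median over all genes of -0.42, and 7007 genes were called in the same direction under both. A required brightness at both stages left 11767 genes, of which 4652 were higher and 3737 lower. Counting only changes of 1 or more on the log2 scale left 1648 and 2008. With the authors' table, the methods' t-test, the 6 arrays alone and every other choice of background, normalization, filter or probe that was tried, the counts stayed within 1.5 times, at 4242 to 5819 higher and 4262 to 5873 lower. Leaving out 1 array gave 4635 to 5087 higher and 5101 to 5410 lower, and for P56 against the reference 7934 to 8867 genes instead of 9495. With the scan as a random block (correlation 0.1827) 4557 were higher and 4987 lower. With the replicate number as a block 5017 were higher and 5470 lower. The numbers share no batch in the labels, and the deviations of same-numbered arrays correlated by 0.0104, 0.0844 and -0.031, so they were not taken as pairs.

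Median centring turned the sign of Hnf4a (-0.1351), Glul (-0.0337) and Pttg1 (-0.2651), none of which was called there (adjusted p = 0.574, 0.917 and 0.287). Cpt1a, not called with loess, was called lower with it (-0.566, adjusted p = 0.0248). Among the genes named in the report, median centring also ended the calls of Cyp8b1, G6pc, Axin2, Wnt2, Mcm10, B2m and Cbx7, the authors' table those of G6pc, Emr1, Clec4g, Pttg1, Sult3a1 and Vim, the Cy5 channel alone those of Axin2 and Pttg1, and the methods' t-test those of G6pc, Fasn, Elovl3, Glul, Emr1, Pttg1, Sult3a1 and B2m. The Glul call was also lost with the 6 arrays alone and with the scan as a random block. Conversely Cps1, Cebpa and Ccnd1 were called lower with median centring, Rxra and Cpt1a higher with the mean over probes, and Rxra in the authors' table and Fbp1 with Cy5 alone higher as well. The Cy5 channel alone reversed E2f8 (-1.9646), where another probe was the brightest. Requiring a value on every array turned the sign of Hk1 (0.1075, not called), where another probe then stood for the gene. The authors' table turned that of Fn3k (-0.004, not called), where the cause was not tested. The cause of the lower share of rises under median centring was not tested. Depth in the sense of reads does not apply to arrays. Signal over background limited 1678 genes at P56 alone, 230 at E18.5 alone and 156 at both, which were not well above background on any array of the stage, and P56 replicate 2 had the fewest spots above it.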

Other observations

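The P56 arrays were also set against the adult reference, which they share with every other array. Several genes of myeloid cells, matrix and lipid uptake lay below it at P56, with mean log2 ratios of -3.35 for S100a9, -2.84 for Mpo, -3.86 for Marco, -2.93 for Lpl and -2.25 for Col1a1. Above it lay the elongase Elovl6 at 3.31 ± 0.51 (SD, n = 3), Khk at 1.78 ± 0.34 (SD, n = 3) and Nudt7, a peroxisomal hydrolase of coenzyme A, at 2.41 ± 0.20 (SD, n = 3). Of all genes, 1930 differed from the reference by at least 1 on the log2 scale at P56 with an adjusted p under 0.05 in limma, and 3127 did so at E18.5. Without a dye swap, dye bias cannot be told apart from a difference in these counts.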
